A study of Mus musculus with 8 samples.

Results

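The mTOR pathway was followed through 10 genes of its core: the kinase Mtor, the complex scaffolds and subunits Rptor, Rictor and Mlst8, the TSC genes Tsc1 and Tsc2, the small GTPase Rheb, and the translation effectors Rps6kb1, Eif4ebp1 and Eif4ebp2. They were taken by gene symbol as named parts of the pathway, with earlier results of these data known, and make up 10 of the 20802 genes in the expression table. RNA was sequenced from the hippocampus of 8 male C57BL/6 mice aged 28 days. The 4 mice of the Anesthesia group had received 35 mg/kg ketamine intraperitoneally once a day for 5 days from postnatal day 16, and the 4 mice of the Control group had received saline on the same days. The sample titles call the Control mice untreated, whereas the treatment description gives them saline. All 8 were weaned on day 21, and the labels name no allele or transgene in either group. Each library came from a piece of whole hippocampal tissue, so fewer cells of a type and less RNA per cell cannot be told apart.

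mTOR is a serine/threonine kinase that works in a pair of complexes. In mTORC1 it is held by raptor, the product of Rptor, and controls protein synthesis and autophagy. In mTORC2 it is held by rictor and phosphorylates AKT, SGK1 and protein kinase C, while mLST8 sits in both complexes. The Tsc1 and Tsc2 products, hamartin and tuberin, form a complex that switches off the GTPase Rheb, the direct activator of mTORC1. Active mTORC1 phosphorylates S6 kinase 1, encoded by Rps6kb1, and the eIF4E-binding proteins encoded by Eif4ebp1 and Eif4ebp2, which otherwise block cap-dependent translation. In the hippocampus the pathway is known for its part in long-lasting synaptic plasticity and in the response to ketamine at antidepressant doses. That response is a matter of protein phosphorylation, which transcript levels do not measure.

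None of the 10 genes passed the test across all genes. With limma on log2 values, the adjusted p of the 10 ran from 0.620 to 0.954, and the lowest adjusted p over the 18865 genes tested was 0.381, so that 0% of all genes tested were called at an adjusted p under 0.05. The study itself, with DESeq2 on its counts, did report differentially expressed genes at that threshold. Before adjustment, Mtor and Tsc1 had a p under 0.05, which is 2 of 10 genes against 8.02% of all genes tested (1513 genes). Both were higher in the Anesthesia group, the direction of 897 of those 1513 genes, or 4.75% of all genes tested. The 616 genes lower in the Anesthesia group made up 3.27%. The balance moved with the scaling, to 982 higher and 517 lower with upper quartile scaling and 791 and 753 with scaling to the total. The same pair, Mtor and Tsc1, had groups that did not overlap at all, again 2 of 10, against 5.04% of all genes tested in either direction and 2.81% with the Anesthesia group higher. The log2 fold change was above 0 for 6 of the 10 and below 0 for 4. Its median over the 10 genes was 0.09, whereas over all genes tested the median was -0.0036 and 49.2% of genes lay above 0. All 10 genes passed the filter on low values.

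The transcripts differed widely in level. Levels between genes were compared as normalized counts per kilobase of the annotated coding transcript, averaged over the 8 mice. Rheb stood first at 918 ± 52.4 normalized counts per kilobase (SD, n = 8). Rictor, Mtor and Tsc2 followed at 362 ± 15.8, 359 ± 20.2 and 354 ± 53.6 normalized counts per kilobase (SD, n = 8), and their ranges over mice overlapped. Rps6kb1 came next at 257 ± 15.7, below all values of Tsc2 and above all values of Rptor. Rptor at 187 ± 22.7 and Tsc1 at 174 ± 14.7 overlapped each other, and Mlst8 lay below them at 117 ± 12.8. The eIF4E-binding protein transcripts were the scarcest, with 53.9 ± 7.81 for Eif4ebp2 and 10.3 ± 3.36 for Eif4ebp1. The order depended on the length used, since division by all annotated exons of a gene put Mtor first at 304 and Rheb next at 212 normalized counts per kilobase.

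**Figure D1:**
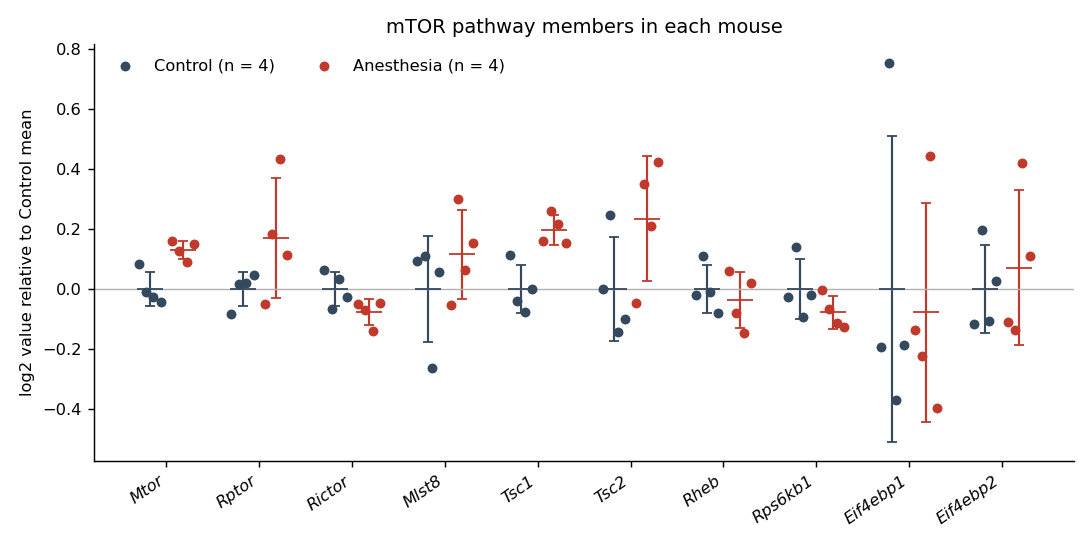
Log2 normalized counts of the 10 genes in each mouse, relative to the Control mean of the gene (y axis), with a point for each mouse, a dash at each group mean and bars of 1 SD (n = 4 each). The 4 Anesthesia points lie above all 4 Control points for Mtor and Tsc1, and the groups overlap for the other 8 genes.

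Mtor encodes the kinase itself (ENSMUSG00000028991, GRCm38 chromosome 4, 148448611 to 148557683, plus strand). The normalized counts in the Anesthesia mice were 3270, 3199, 3119 and 3247. In the Control mice they were 3101, 2911, 2872 and 2840. The groups did not overlap, but the gap between them was narrow, because the lowest Anesthesia mouse stood at 3119 and the highest Control mouse at 3101. The group means were 3209 ± 66.4 and 2931 ± 117 (SD, n = 4 each), with a log2 fold change of 0.13 (SE 0.05, 95% interval 0.019 to 0.243), or a 1.09-fold higher level (1.01 to 1.18). The limma p was under 0.05 before adjustment and the adjusted p was 0.620.

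Tsc1 encodes hamartin, which stabilises tuberin within the TSC complex (ENSMUSG00000026812, GRCm38 chromosome 2, 28641228 to 28691167, plus strand). The Anesthesia mice had 1395, 1497, 1450 and 1389 normalized counts. The Control mice had 1351, 1216, 1186 and 1251. As with Mtor, the groups were fully apart, and Control mouse 1 was the closest to the Anesthesia range for both genes. The means of 1433 ± 50.8 and 1251 ± 71.6 (SD, n = 4 each) gave a log2 fold change of 0.20 (SE 0.06, 95% interval 0.060 to 0.333), equal to 1.15-fold (1.04 to 1.26). Before adjustment its limma p was the lowest of the 10 genes, and the adjusted p was 0.620. When each mouse was left out in turn, the limma p before adjustment was under 0.05 in 8 of 8 fits for Tsc1 and in 3 of 8 fits for Mtor.

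Tsc2 encodes tuberin, the GTPase-activating subunit that acts on Rheb (ENSMUSG00000002496, GRCm38 chromosome 17, 24595816 to 24632630, minus strand). Its normalized counts were 1749, 2303, 2092 and 2423 in the Anesthesia mice and 1806, 2142, 1634 and 1685 in the Control mice. Anesthesia mouse 1 lay inside the Control range and Control mouse 2 inside the Anesthesia range, so the groups overlapped. The log2 fold change of 0.23 was the largest in size of the 10 genes, but its 95% interval ran from -0.015 to 0.484 (limma, adjusted p = 0.636). Without Anesthesia mouse 1 the log2 fold change was 0.33, and without Control mouse 2 it was 0.32. Before adjustment the limma p was under 0.05 in both of these fits and in no other that left out a mouse, and the adjusted p over all alternatives ran from 0.359 to 0.976. The last exons of Tsc2 overlap those of Pkd1, the polycystin 1 gene on the opposite strand, whose normalized counts were 4281 ± 401 after ketamine and 3602 ± 139 after saline (SD, n = 4 each). The strand setting of the counting was not given in the sources used here, so reads of the overlap cannot be told apart and the Tsc2 value is uncertain to that extent.

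Rptor encodes raptor, the scaffold that brings substrates to mTORC1 (ENSMUSG00000025583, GRCm38 chromosome 11, 119602905 to 119899576, plus strand). The Anesthesia mice had 1119, 1315, 1561 and 1251 normalized counts, and the Control mice had 1092, 1172, 1174 and 1195. In the Anesthesia group 3 of 4 mice were above every Control mouse, whereas mouse 1 was among them. The spread was unequal, with an SD of 185 among Anesthesia mice and 45.4 among Control mice (n = 4 each). The log2 fold change was 0.17 (95% interval -0.038 to 0.377; limma, adjusted p = 0.665). It was 0.08 without Anesthesia mouse 3 and 0.24 without Anesthesia mouse 1, and only the latter fit gave a limma p under 0.05 before adjustment. A short antisense transcript, Rptoros, overlaps an exon of Rptor and averaged 16.0 normalized counts.

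Mlst8, the small beta-propeller subunit shared by both complexes (ENSMUSG00000024142, GRCm38 chromosome 17, 24473551 to 24479078, minus strand), had 416, 530, 450 and 479 normalized counts in the Anesthesia mice. The Control mice had 461, 466, 359 and 449. The groups overlapped, with a log2 fold change of 0.11 (95% interval -0.125 to 0.355; limma, adjusted p = 0.779). An exon of Mlst8 overlaps the opposite-strand gene Bricd5, which is not analysed here.

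Rictor encodes the scaffold that defines mTORC2 (ENSMUSG00000050310, GRCm38 chromosome 15, 6708379 to 6800401, plus strand), and its log2 fold change had the opposite sign to that of Mtor. The normalized counts were 3346, 3296, 3142 and 3352 in the Anesthesia mice and 3613, 3306, 3539 and 3398 in the Control mice. In the Anesthesia group 2 of 4 mice were below every Control mouse, and the other two lay inside the Control range. The log2 fold change was -0.08 (95% interval -0.191 to 0.038; limma, adjusted p = 0.706).

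Rheb, the GTPase that activates mTORC1 (ENSMUSG00000028945, GRCm38 chromosome 5, 24802823 to 24842624, minus strand), had 1726, 1567, 1496 and 1679 normalized counts in the Anesthesia mice and 1632, 1785, 1645 and 1567 in the Control mice. The groups overlapped, with a log2 fold change of -0.04 (95% interval -0.184 to 0.112; limma, adjusted p = 0.891).

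Rps6kb1, encoding S6 kinase 1 (ENSMUSG00000020516, GRCm38 chromosome 11, 86498871 to 86544805, minus strand), had 1454, 1391, 1346 and 1334 normalized counts in the Anesthesia mice and 1430, 1607, 1367 and 1437 in the Control mice. Its log2 fold change was -0.08 (95% interval -0.223 to 0.067; limma, adjusted p = 0.754). Its exons overlap those of Rnft1 on the opposite strand, at a mean of 368 normalized counts.

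Eif4ebp2, encoding the main eIF4E-binding protein of brain (ENSMUSG00000020091, GRCm38 chromosome 10, 61428491 to 61452661, minus strand), had 280, 274, 403 and 326 normalized counts in the Anesthesia mice and 278, 345, 281 and 307 in the Control mice. The log2 fold change was 0.07 (95% interval -0.224 to 0.365; limma, adjusted p = 0.893). Eif4ebp1 (ENSMUSG00000031490, GRCm38 chromosome 8, 27260329 to 27276674, plus strand) was scarce in these libraries, at 18.5, 17.4, 27.6 and 15.4 normalized counts in the Anesthesia mice against 17.8, 34.2, 15.7 and 17.8 in the Control mice. With its interval of -0.750 to 0.599 around a log2 fold change of -0.08, the data allow a fold change anywhere from 0.595 to 1.51 in this transcript (limma, adjusted p = 0.954). Control mouse 2 carried most of the Control spread, and without it the log2 fold change was 0.17 (SE 0.29).

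**Figure D2:**
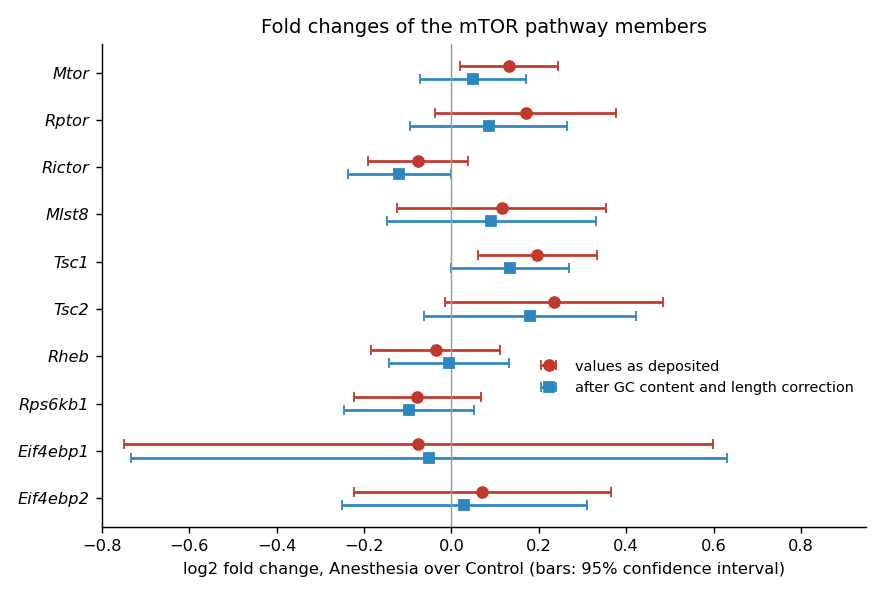
Log2 fold change of each gene in the Anesthesia group over the Control group (x axis), with 95% intervals from limma, as deposited and after a correction for GC content and transcript length. The intervals as deposited exclude 0 for Mtor and Tsc1, and after the correction they include 0 for Tsc1 and Mtor and reach -0.0013 at the upper end for Rictor.

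The GC content of a transcript went along with the sign of its fold change among the 10 genes in the fit on all mice. The signs of Rheb, Eif4ebp1 and Eif4ebp2 were not fixed, since they turned in some fits that left out a mouse. Transcript length did not separate the signs, with Rictor (9312 bases) below 0 and Mlst8 (3855 bases) above 0. The 6 genes with a log2 fold change above 0 had coding transcripts of 51.7% GC or more, and the 4 with a log2 fold change below 0 had 48.2% GC or less. Over all genes tested the order was the same with smaller differences. The median log2 fold change was -0.022 in the 3770 genes of lowest GC content and 0.047 in the 3770 of highest, and by transcript length it went from -0.030 in the 3770 shortest to 0.030 in the 3769 longest. Not all libraries shared these trends. The median deviation of the longest minus that of the shortest was -0.058, 0.026, 0.093 and 0.025 in the Anesthesia mice. In the Control mice it ran from -0.047 to -0.0325, above Anesthesia mouse 1. The same difference for GC content was 0.013 to 0.049 in the Anesthesia mice and -0.075, -0.056, -0.0405 and 0.017 in the Control mice. Mtor, at 54.2% GC and 8564 bases, and Tsc1, at 51.7% GC and 7702 bases, are long transcripts, as is Rictor at 9312 bases and 42.5% GC. In a fit on values corrected within each library for both properties, the log2 fold change of Mtor was 0.05 (95% interval -0.072 to 0.171) and that of Tsc1 was 0.13 (95% interval -0.0003 to 0.270), neither with a limma p under 0.05 before adjustment. That of Rictor was -0.12 (95% interval -0.238 to -0.0013), with a limma p under 0.05 before adjustment and an adjusted p of 0.722, in a range of 0.607 to 0.976 over its alternatives. Rictor was the 1 gene of the 10 with such a p in that fit, beside 1284 of the 18865 genes tested. After the correction the groups overlapped for all 10 genes, while 803 of the 18865 genes tested still had groups that did not overlap. The correction for length alone took Mtor to 0.07 and that for GC content alone took it to 0.11, both chosen after seeing the data. Rictor was at -0.14 with length alone and at -0.05 with GC content alone, and only the former had a limma p under 0.05 before adjustment. Tsc1 was at 0.14 and 0.19, both with such a p. The part of GC content and length in the group difference was not tested further.

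**Figure D3:**
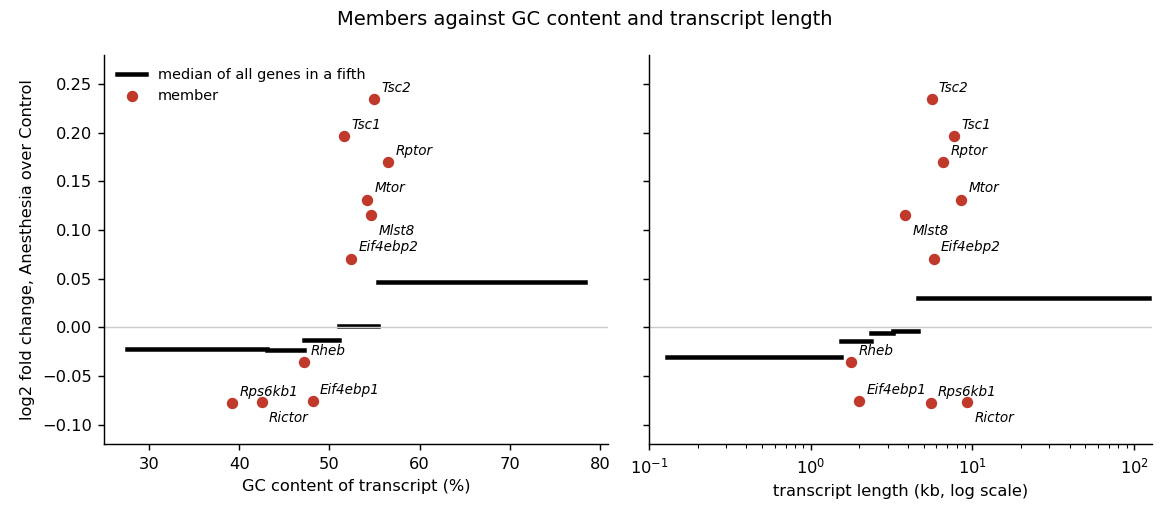
Log2 fold change of the 10 genes (red points) against the GC content of the transcript in percent (left) and its length in kilobases on a log scale (right), with black bars at the median of all genes tested in bins of equal size. The 6 genes above 0 lie at 51.7% GC or more and the 4 below 0 at 48.2% or less. The signs of Rheb, Eif4ebp1 and Eif4ebp2 turned in some fits that left out a mouse.

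The dissections also differed. The hippocampal neuron list was present in full in every mouse (10 of 10 genes, led by Zbtb20 at 14641 normalized counts), with a summed level of 19686 to 38632 in the Anesthesia group and 25053 to 33709 in the Control group. The median log2 fold change of the neuron list was -0.08, with 2 of its 10 genes above 0 and 0 with an unadjusted p under 0.05. The choroid plexus list, led by Ttr (transthyretin), was present in 12 of 12 genes, with 1 marker at 0 in a mouse. Its summed level was 58784, 1312, 765 and 3725 in the Anesthesia mice and 926, 27472, 68409 and 68267 in the Control mice, so Anesthesia mouse 1 and Control mice 2, 3 and 4 were rich in it. The median log2 fold change of the list was -1.92, with an unadjusted p under 0.05 for 0 of its 12 genes. Among the Control mice, the choroid-poor mouse 1 had the highest Mtor and Tsc1 and the lowest Rptor. Among the Anesthesia mice, the choroid-rich mouse 1 had the highest Mtor and the lowest Rptor, Tsc2 and Mlst8. With the choroid plexus level as a covariate, the log2 fold change was 0.12 for Mtor, 0.15 for Tsc1, 0.16 for Tsc2, 0.12 for Rptor and -0.08 for Rictor, and only that of Tsc1 had a limma p under 0.05 before adjustment. Over all genes tested, 851 of 18865 had such a p in that fit. Other lists were summed in the same way, and only the ranges by group are given. The thalamus list (6 genes, 2 with an unadjusted p under 0.05, median log2 fold change -0.33) ran from 2679 to 3427 in the Anesthesia group and from 2812 to 4101 in the Control group. Oligodendrocyte genes ran from 103110 to 174900 and from 91360 to 166170, astrocyte genes from 98104 to 110220 and from 95030 to 100880, microglial genes from 5573 to 6357 and from 5526 to 6440, endothelial genes from 3816 to 4516 and from 3555 to 4604, and blood genes from 4173 to 5673 and from 4310 to 6941. Of these, 1 of 7 astrocyte genes and no oligodendrocyte, microglial, endothelial or blood gene had an unadjusted limma p under 0.05.

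Ratios within a mouse do not depend on the scaling of a library. The log2 ratio of Rptor to Rictor, the scaffolds of mTORC1 and mTORC2, was -1.58, -1.33, -1.01 and -1.42 in the Anesthesia mice and -1.73, -1.50, -1.59 and -1.51 in the Control mice. Its mean was -1.33 ± 0.24 against -1.58 ± 0.11 (SD, n = 4 each), a difference of 0.25 (0.20 after the correction for GC content and length), and the groups overlapped through Anesthesia mouse 1. Tsc2 relative to Tsc1 differed by 0.04, Mlst8 relative to Mtor by -0.02 and Eif4ebp1 relative to Eif4ebp2 by -0.15, all with overlapping groups and each smaller than the SD within a group.

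Once the values had been seen, all 45 pairs of the 10 genes were looked at, and 4 had groups that did not overlap, all of them with Mtor or Tsc1 on one side and Rictor or Rps6kb1 on the other. This was 8.89% of the pairs, beside 4.16% of all pairs of the 18764 tested genes above 0 in every mouse, and the 4 ratios share 4 genes. The groups of Mtor and Tsc1 did not overlap on their own, so these ratios are not a separate result. The share over pairs that hold such a gene was not computed. The level of Mtor was 0.969 to 0.993 times that of Rictor in the Anesthesia mice, and 0.812 to 0.880 times in the Control mice. Rictor was 2.17 to 2.41 times Tsc1 in the Anesthesia mice and 2.67 to 2.98 times in the Control mice. Mtor was 2.25 to 2.43 times Rps6kb1 against 1.81 to 2.17 times, and Tsc1 was 0.960 to 1.08 times Rps6kb1 against 0.757 to 0.944 times. These factors are ratios of normalized counts, not per kilobase, and no test was made on pairs chosen in this way. After the correction for GC content and length, 2 of the 45 pairs had groups that did not overlap. These were Mtor to Rictor (log2 difference 0.17) and Rictor to Tsc1 (log2 difference -0.25), and the pair of ratios with Rps6kb1 overlapped. The share over all gene pairs was not computed after the correction, and before it that share was 4.16%.

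**Figure D4:**
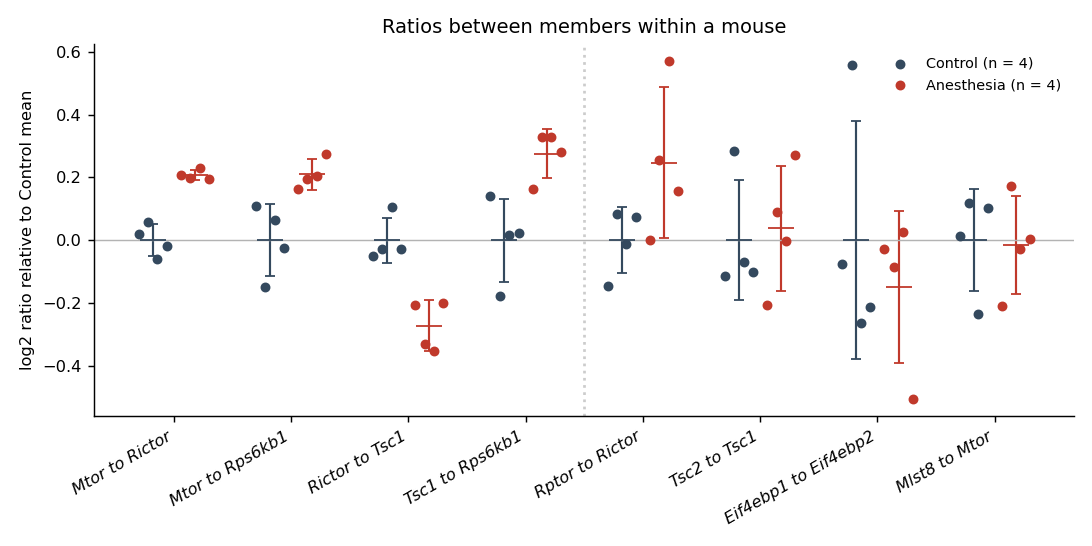
Log2 ratios of normalized counts within each mouse, relative to the Control mean of the ratio (y axis), with a point for each mouse, a dash at each group mean and bars of 1 SD (n = 4 each). Left of the dotted line are the 4 ratios whose groups do not overlap, picked after all 45 were seen, and right of it the 4 set by complex or role, whose groups overlap.

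The promoters of the 4 genes that form these ratios are given as the 250 bases before the RefSeq start (GRCm38.p6), to set the sequences at the starts of these genes beside their values. Each is written 5′ to 3′ on the strand of the gene, with matches to the GC box or the CCAAT box in capitals.
Mtor, chr4:148448332-148448581, plus strand: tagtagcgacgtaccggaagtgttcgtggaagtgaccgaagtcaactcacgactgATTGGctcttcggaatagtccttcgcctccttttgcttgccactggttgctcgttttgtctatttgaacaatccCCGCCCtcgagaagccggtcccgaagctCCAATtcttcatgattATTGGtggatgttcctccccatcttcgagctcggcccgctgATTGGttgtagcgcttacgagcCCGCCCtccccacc
Tsc1, chr2:28640983-28641232, plus strand: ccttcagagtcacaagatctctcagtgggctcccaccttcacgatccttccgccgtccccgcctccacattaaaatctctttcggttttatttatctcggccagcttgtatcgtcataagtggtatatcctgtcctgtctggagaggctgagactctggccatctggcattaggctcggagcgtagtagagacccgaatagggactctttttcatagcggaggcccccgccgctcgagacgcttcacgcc
Rictor, chr15:6708131-6708380, plus strand: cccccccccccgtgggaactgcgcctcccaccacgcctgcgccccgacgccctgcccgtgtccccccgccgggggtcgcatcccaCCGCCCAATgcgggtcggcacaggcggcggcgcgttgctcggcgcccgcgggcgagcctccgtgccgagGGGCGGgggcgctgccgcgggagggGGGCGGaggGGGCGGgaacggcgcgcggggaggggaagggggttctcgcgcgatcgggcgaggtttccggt
Rps6kb1, chr11:86544808-86545057, minus strand: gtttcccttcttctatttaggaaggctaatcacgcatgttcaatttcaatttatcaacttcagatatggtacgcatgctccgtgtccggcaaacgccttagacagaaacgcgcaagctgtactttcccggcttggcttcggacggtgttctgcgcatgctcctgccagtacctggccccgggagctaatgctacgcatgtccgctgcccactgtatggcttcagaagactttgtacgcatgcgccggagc

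Windows were found for 9 of the 10 genes, all but Eif4ebp1. The letters searched on both strands were GGGCGG for the GC box, CACGTG for the E-box, TGACGTCA for the CRE and CCAAT for the CCAAT box. The Mtor window held 2 GC boxes and 4 CCAAT boxes, and the Rictor window held 4 GC boxes and 1 CCAAT box that shares letters with one of them. The windows of Tsc1 and Rps6kb1 held none of the 4 motifs. As Tsc1 and Rps6kb1 stand on opposite sides of the ratios, the search could not set Mtor and Tsc1 apart from Rictor and Rps6kb1. A link between motifs and values was not tested. The windows of Mtor and Tsc1 were 54.4% GC and that of Rps6kb1 52.8%, near the median of 52.4% over 32851 windows, and that of Rictor was 81.2% GC. Across the 9 genes, the GC box was in 4 windows, the CCAAT box in 2, the E-box in 1 (Rheb) and the CRE in none, and of all windows 32.7%, 33.8%, 6.02% and 1.55% held them. These matches are descriptions of the letters in the window.

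The rest of the pathway was read from a list of 100 genes in 15 roles, of which 98 were tested, 88 of them outside the 10 genes. None of the 88 passed an adjusted p under 0.05 with limma. An unadjusted p under 0.05 was found for 5 of 88, or 5.68% beside 8.02% of all genes tested, with 4 higher and 1 lower in the Anesthesia group. Groups that did not overlap were found for 2 of 88, or 2.27% beside 5.04% of all genes tested. The median log2 fold change was -0.01, with 40 genes above 0 and 48 below.

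By list, with the subunits that both complexes share filed under mTORC1 alone, the other mTORC1 subunits had positive log2 fold changes, at 0.13 for the inhibitory subunit Akt1s1 (PRAS40) and 0.21 for Deptor, which also binds mTORC2. With Mtor, Rptor and Mlst8 this made 5 of 5 genes of the mTORC1 list above 0, of which only Mtor had an unadjusted limma p under 0.05. That count was the same under every scaling and correction, and 4 of 5 without Anesthesia mouse 3. The 4 genes of the mTORC2 list, which leaves out the shared Mtor, Mlst8 and Deptor (all above 0), were below 0, at -0.08 for Rictor, -0.09 for Mapkap1 (mSIN1), -0.32 for Prr5 (protor-1) and -0.05 for Prr5l (protor-2), none with an unadjusted limma p under 0.05. Without Anesthesia mouse 1, and likewise without Control mouse 3, 3 of the 4 were below 0. No test was made of the difference between the lists. The third TSC subunit, Tbc1d7, had 171 normalized counts in both groups and a log2 fold change of -0.0047. Its sign turned with upper quartile scaling, with the correction for GC content and length (0.02), with that for length alone and in 4 of the 8 fits without 1 mouse. The Rheb relative Rhebl1 stood at 70.0 against 54.8 normalized counts (log2 fold change 0.34; limma, adjusted p = 0.639). On the S6 kinase arm 1 of the 5 other genes was above 0, with a range of -0.10 to 0.08, and in the eIF4E and eIF4F group 4 of 9 were above 0, with a range of -0.12 to 0.39. These subunits were named to complete the complexes of the 10 genes.

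Igf1r, the receptor for insulin-like growth factor 1 upstream of PI3K and AKT, had 1549, 1776, 2005 and 1818 normalized counts in the Anesthesia mice and 1441, 1331, 1569 and 1502 in the Control mice. In the Anesthesia group 3 of 4 mice were above every Control mouse, with a log2 fold change of 0.29 (limma, adjusted p = 0.595). Sgk1, a kinase phosphorylated by mTORC2, was the 1 gene of the 5 that was lower, at 1874, 1474, 1509 and 1253 against 1698, 1755, 2447 and 2307 normalized counts. Its log2 fold change was -0.42 (limma, adjusted p = 0.620). With the choroid plexus level as a covariate it was -0.27, and the p before adjustment was no longer under 0.05. The 2 Control mice with the most choroid plexus RNA had the most Sgk1 of the Control group, and Anesthesia mouse 1 had the most Sgk1 and the most choroid plexus RNA of its group. The part of choroid plexus RNA in this result was not tested beyond that covariate.

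Castor2, of the arginine sensor family that binds GATOR2, had means of 964 ± 183 and 754 ± 118 normalized counts (log2 fold change 0.35; limma, adjusted p = 0.622), with 3 of 4 Anesthesia mice above every Control mouse. Eif4g3, a scaffold of the eIF4F cap-binding complex, had 2924 ± 550 and 2401 ± 257 (log2 fold change 0.27; limma, adjusted p = 0.622). When each mouse was left out in turn, the limma p before adjustment was under 0.05 in 3 of 8 fits for Castor2 and in 3 of 8 for Eif4g3. Without Anesthesia mouse 3 the log2 fold change of Eif4g3 was 0.15 and that of Castor2 0.24, and neither p was under 0.05 before adjustment. The same held with the choroid plexus covariate (0.20 and 0.27) and after the correction for GC content and length (0.23 and 0.28). Slc38a9, the lysosomal arginine sensor that acts on the Rag GTPases, had 781, 799, 875 and 825 normalized counts in the Anesthesia mice and 776, 749, 743 and 721 in the Control mice. Its groups did not overlap, but the nearest mice were at 781 and 776, and its log2 fold change was 0.13 (limma, adjusted p = 0.636).

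**Figure D5:**
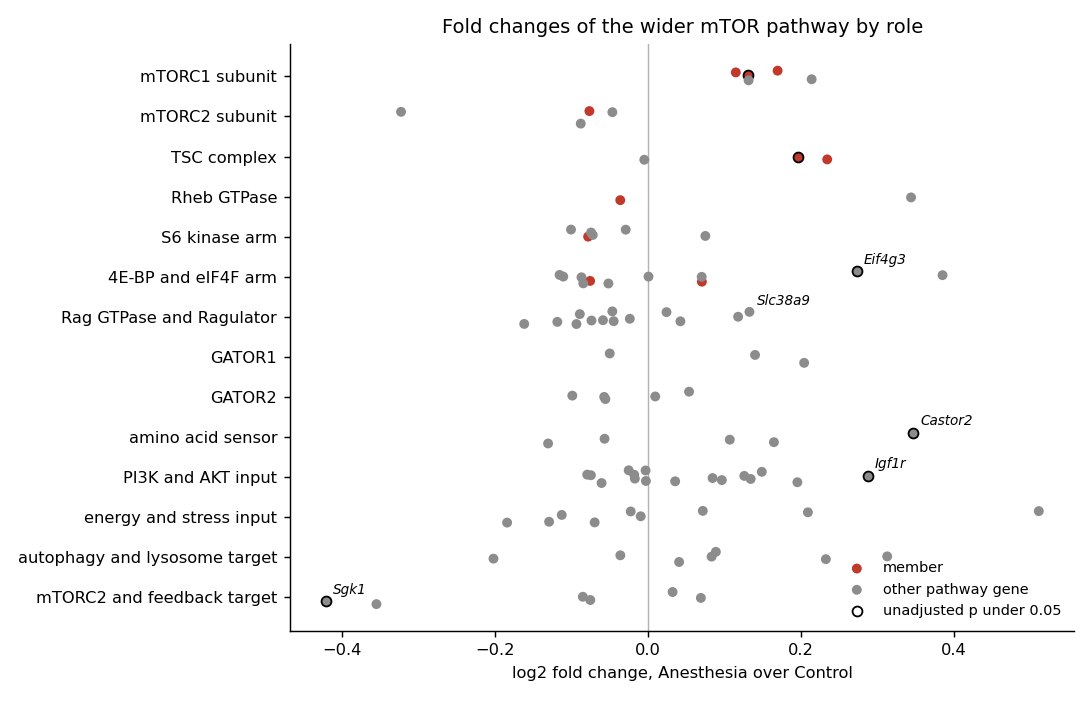
Log2 fold change of the tested pathway genes (x axis), grouped by role, with the 10 core genes in red, the other pathway genes in grey and a black outline where the unadjusted limma p was under 0.05. The genes filed under mTORC1, shared subunits included, lie above 0, those filed under mTORC2 alone below 0, and Sgk1 has the lowest value at -0.42. 1 of the 15 roles is not drawn.

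The transcripts whose log2 values most resembled those of Mtor over the 8 mice were B4galnt4 (Pearson r = 0.96), Gm42829 (r = 0.96) and Dzip1l (r = 0.95). B4galnt4 had 1010, 1044, 1006 and 1031 normalized counts in the Anesthesia mice and 984, 782, 762 and 728 in the Control mice, with Control mouse 1 again nearest to the Anesthesia range. The points share the 8 libraries and the group difference, and the likeness is a description.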

How the data were processed

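RNA from the hippocampus of 8 mice (4 Anesthesia, 4 Control, as the sample titles group them) had been sequenced, quantified by the authors with Salmon 1.1.0 and imported with tximport into R 3.5.3, where DESeq2 1.30.1 gave size factors. The deposited values are these normalized counts per gene (a signal that is not whole reads), with GRCm38 as the build. The labels name a TruSeq RNA v2 kit, the study's methods a stranded total RNA kit. Totals of normalized counts were 18702634 to 19231119 per library. The smallest steps between low values put the depth at about 15400000 to 22200000 reads, but only 45.9% to 68.3% of low values were within 0.1 of a whole read, so no counts were recovered and no count test was run.

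Genes with a mean of at least 10 were kept (18865 of 20802), and log2(value + 1) was tested with limma 3.58.1 in R 4.3.3 with a mean-variance trend, with Benjamini-Hochberg adjustment over all genes tested. Fold changes are on that log2(value + 1) scale, which understates low genes. The labels do not say that mice of a group came from separate litters, so p-values measure only the spread between these mice. Annotation was GENCODE M21, which held 20784 of the identifiers, and promoters came from RefSeq. GC content and length corrections were lowess curves with a span of 0.3 within each library. Named were the 10 genes, other pathway genes with an unadjusted p under 0.05 or groups that did not overlap, and the 3 genes most like Mtor. The values of 1 pathway gene, which is included in the counts, are not reported here. Gene lists, members and ratios were chosen with earlier results of these data known. Scripts were tested on simulated data. Alternatives were limma voom, other scalings, filters and pseudocount, the replicate number as a block, the corrections above, the choroid plexus covariate and leaving out each mouse.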

Additional observations from a re-analysis of the deposited data

Results flagged for a closer look

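In 3 of the 40 groups of 4 mice examined (16 genes and 4 ratios in both groups) 1 mouse lay far from the other three, where chance gives about 1 in 20, or 2. Control mouse 3 had 359 normalized counts of Mlst8, against 449 to 466 in the other Control mice. Control mouse 2 had 34.2 normalized counts of Eif4ebp1, against 15.7 to 17.8. The same mouse had a Tsc2 to Tsc1 log2 ratio of 0.82, against 0.42 to 0.46.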

How the results depend on the processing

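No alternative called any of the 10 genes at an adjusted p under 0.05 or 0.10. The number of the 10 with an unadjusted limma p under 0.05, 2 as reported, was 1 with the choroid plexus covariate (Tsc1), 1 with the correction for GC content and length (Rictor, lower) and 1 with the correction for GC content alone (Tsc1), and it ran from 1 (without Anesthesia mouse 4, Control mouse 3 or Control mouse 4) to 3 (without Anesthesia mouse 1) over the fits without 1 mouse. With the correction for length alone the number was 2, Tsc1 (higher) and Rictor (lower). That correction and the one for GC content alone were chosen after seeing the data. Over all genes tested this count, 1513 as reported, was 851 with the choroid plexus covariate. The corrections gave 1284 for GC content and length, 1378 for GC content alone and 1473 for length alone. The count was 1193 without Anesthesia mouse 4, 1087 without Control mouse 3 and 1180 without Control mouse 4. Without Anesthesia mouse 1 it was 2024, the highest in a range of 1061 to 2024 over the fits without 1 mouse. Genes called at an adjusted p under 0.05 numbered 0 to 2 over those fits, the 2 without Control mouse 1. For the 88 other pathway genes, 5 as reported, the count ran from 4 to 10, with 9 without Anesthesia mouse 1 and 10 without Anesthesia mouse 2, beside 1757 of all genes tested without Anesthesia mouse 2. The median log2 fold change of the 10 genes ran from 0.03 to 0.14 over those fits and from 0.03 to 0.10 over the other alternatives.

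With 1 mouse left out, the log2 fold change of Rheb ran from -0.068 to 0.00038, that of Eif4ebp2 from -0.045 to 0.14 and that of Eif4ebp1 from -0.24 to 0.17, so their signs were not fixed. The sign turned without Anesthesia mouse 3 or Control mouse 2 for Rheb, without Anesthesia mouse 3 for Eif4ebp2, and without Anesthesia mouse 4 or Control mouse 2 for Eif4ebp1, and the cause was not tested. The same fits gave differences of 0.14 to 0.33 for Rptor to Rictor, -0.04 to 0.13 for Tsc2 to Tsc1, -0.24 to 0.04 for Eif4ebp1 to Eif4ebp2 and -0.09 to 0.05 for Mlst8 to Mtor. Per kilobase of all annotated exons, levels were 304 for Mtor, 212 for Rheb, 206 for Tsc2, 199 for Rictor, 164 for Rps6kb1, 113 for Tsc1, 102 for Mlst8, 91.7 for Rptor, 53.9 for Eif4ebp2 and 9.36 for Eif4ebp1.

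The groups share replicate numbers, but deviations of same-numbered mice correlated at -0.24, -0.11, -0.18 and 0.02, and 0 of 8 mice correlated best with the mouse of their own number. In a fit that took the number as a block, 0 genes were called, and 1084 genes, 1 of the 10 (Tsc1) and 5 of the 88 had an unadjusted p under 0.05. With the block and the correction for GC content and length together these were 949 genes, 0 of the 10 and 3 of the 88.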
